A study of Mus musculus with 6 samples.

Results

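The blood vessel endothelial genes are 35 genes that mark or run the cells lining blood vessels. They were chosen by name from what is known of these cells, but with earlier results of these data known. The list as a whole therefore gets no test of its own. All 35 had at least 1 probe set naming only that gene on the Affymetrix Mouse430_2 array, out of 18193 genes measured that way, and each was read from its brightest probe set. The arrays hold total RNA of embryonic mouse lungs isolated at E18.5, shortly before birth, and the series asks which genes the transcription factor GATA6 regulates there. There are 3 arrays labelled wild type (WT 1 to WT 3) and 3 labelled GATA6 KO (KO 1 to KO 3). The labels give neither the strain, nor the allele, nor a promoter or cell type in which GATA6 was removed. They also do not say whether arrays share a litter or an extract, so the p-values measure only the spread between these arrays, which may be technical.

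Endothelial cells hold together through junction proteins such as VE-cadherin and PECAM1, and they keep vessels quiet or let them grow through the TIE, endoglin-ALK1 and apelin receptors. Their identity is maintained by transcription factors of the ETS family (ERG, FLI1, ETS1) and the SOXF family (SOX7, SOX17, SOX18). In the lung shortly before birth a dense capillary net forms around the future air spaces. It holds cells that carry apelin receptor, PLVAP and GPIHBP1, and others, spread thin over the gas exchange surface, that carry carbonic anhydrase 4, endothelin receptor B and apelin.

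The values are deposited intensities taken to log2 after adding 16, and a difference is always the arrays labelled KO minus those labelled WT. Gata6 itself, through the brightest of its 3 probe sets, read 11.12, 10.26 and 10.42 in WT 1 to WT 3 and 11.58, 11.39 and 11.19 in KO 1 to KO 3. That level does not check the labels, and the other Gata6 probe sets are not given here. Every direction below is therefore one between labels. A measure taken here as RNA composition differed between arrays: how far bright probe sets that name no gene lay below bright named ones. It was 0.23, 0.46 and 0.031 log2 in WT 1, KO 2 and KO 3, and 1.02, 0.94 and 0.96 in WT 2, WT 3 and KO 1. What moves this measure was not tested. Fluidics station 1 served WT 1 and WT 2, and station 2 the other 4 arrays. Scanning order followed the labels, WT first and KO after, and cannot be told apart from them.

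Endothelial genes read lower in the arrays labelled KO as a group, and none differed by itself beyond the spread between arrays after adjustment. Of the 35 genes 34 read lower, against 41.6% of all genes and 55% of the 9310 bright genes, and 1 read higher, against 58.4% of all genes. The median of the 35 log2 differences was -0.44, and that of all 18193 genes was 0.0025. A gene was called bright where at least 1 group mean reached 6.88, the median of the genes' means, and 34 of the 35 were bright. No member passed limma at a Benjamini-Hochberg adjusted p of 0.05 (lowest 0.775), and 1 gene of all did (0.0055%). An unadjusted p under 0.05 was reached by 8 of the 35, all of them lower, against 4.58% of all genes in either direction, 2.59% lower, and 4.18% of bright genes lower. That count ranged from 1 with fluidics station as a block to 16 without WT 1, and was 2 without WT 2 and 2 without KO 3. The shares of all genes in those fits are not given here, so their counts are not a result about the members. In 6 members the 3 arrays labelled KO were all under the 3 labelled WT, against 3.81% of all genes and 6.27% of bright genes. In 0 members were they all above, against 5.89% and 5.28%, and the groups of 9.7% of all genes did not overlap in either direction. Summed on the linear scale, the intensities of the 35 genes ran from 45811 to 59271 in the arrays labelled WT and from 37390 to 41805 in those labelled KO. That separation rests on Calcrl: without it the sum was 37327 in WT 1 and 38034 in KO 1, while leaving out any 1 of the other 34 genes kept the groups apart. Among all 63 probe sets that name a member, 59 read lower. In RNA of whole lung, fewer endothelial cells and less of these RNAs per cell cannot be told apart.

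**Figure D1:**
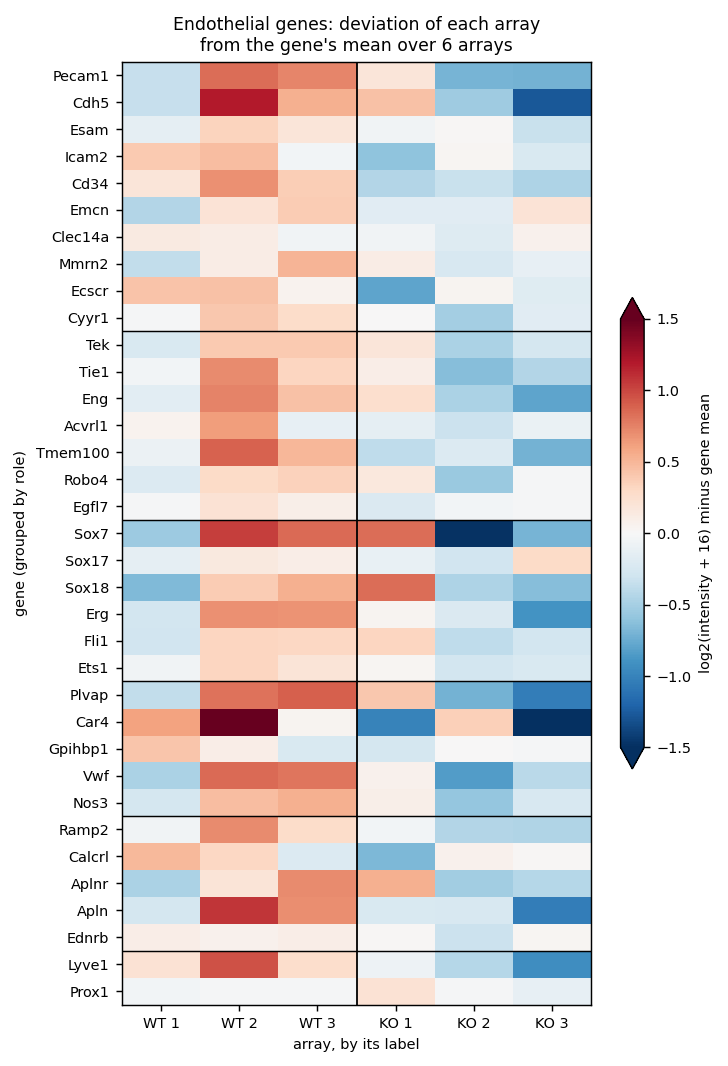
Deviation of each array (columns, in order of label) from the gene's mean over the 6 arrays, in log2(intensity + 16), for the 35 endothelial genes (rows, by role; lines part the roles and the groups). WT 2 lay above the gene's own mean in 34 of 35 genes and WT 3 in 29, while KO 2 and KO 3 did so in 6 and 5; colours end at 1.5, which Car4 exceeds.

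The genes largely ordered the arrays alike, and the order did not follow the labels alone. The median deviation from a gene's own mean over 6 arrays was 0.44 in WT 2 and 0.32 in WT 3, but -0.14 in WT 1. Among the arrays labelled KO it was 0.013 in KO 1, above WT 1, and -0.32 and -0.28 in KO 2 and KO 3. WT 1 was the lowest of its group in 27 of the 35 genes and KO 1 the highest of its group in 21. WT 1, KO 2 and KO 3 are the 3 arrays with much signal on unnamed probe sets, and in 19 of the 35 genes these 3 lay below all the others, against 17.5% of all genes and 26.6% of bright genes.

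The label difference was therefore also read within each side of the widest gap in RNA composition, a comparison chosen after the data were seen. KO 1 minus the mean of WT 2 and WT 3 had a median of -0.39 over the 35 genes, with 31 lower. The mean of KO 2 and KO 3 minus WT 1 had a median of -0.29, also with 31 lower. RNA composition is not held fixed there: unnamed minus named probe sets ran from -0.46 in KO 2 to -0.031 in KO 3. In 28 of the 35 genes (80.0%) both differences were below 0, against 18.8% of all genes and 28.3% of bright genes. With the RNA composition of each array as a covariate in limma, the median was -0.36 and 33 members read lower. In that fit 15 members reached an unadjusted p under 0.05, all lower, against 3.22% of all genes, and none an adjusted one (lowest 0.567). Within fluidics station 2, where WT 3 stands against KO 1 to KO 3, the median was -0.59 and 32 members read lower. Members moved both ways there: Car4 went from -1.58 to -0.83 and Acvrl1 from -0.37 to -0.062, while Plvap went from -0.90 to -1.35. With any 1 of the 6 arrays left out, 31 to 35 members read lower. The comparisons within RNA composition or station rest on as little as 1 array on a side, so they carry no check of their own between replicates.

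**Figure D2:**
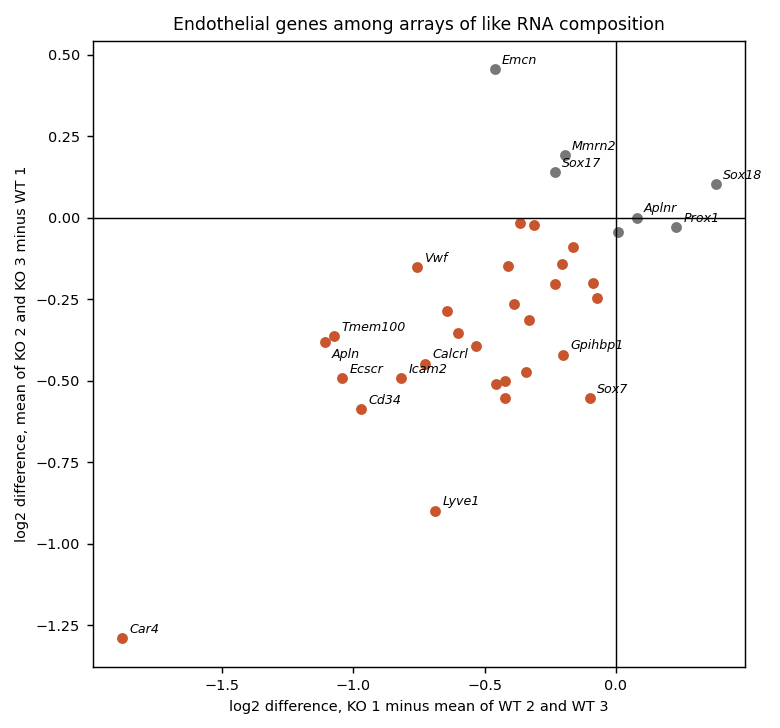
Log2 difference KO 1 minus the mean of WT 2 and WT 3 (x axis) against the mean of KO 2 and KO 3 minus WT 1 (y axis) for each of the 35 genes. The 3 arrays in each comparison lie on the same side of the widest gap in RNA composition. The 28 genes below 0 on both axes are in orange; Car4, at -1.88 and -1.29, is the farthest from 0, and Sox18 is the gene above 0 on both.

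Promoters of 4 members are given here because their genes span the patterns that follow: Cd34 has the smallest p among the members, Ednrb has arrays that do not overlap at a small difference, and Tie1 and Eng are vessel receptor genes with larger differences. The windows run from 250 bases before to 50 after the gene's start, are from RefSeq (GRCm38.p6), and are written 5′ to 3′ on the gene's strand. Capitals mark GATA words (AGATAA or TGATAA or AGATAG or TGATAG) and ETS words (AGGAAG or CGGAAG) on either strand.
Cd34, chr1:194938571-194938870, plus strand: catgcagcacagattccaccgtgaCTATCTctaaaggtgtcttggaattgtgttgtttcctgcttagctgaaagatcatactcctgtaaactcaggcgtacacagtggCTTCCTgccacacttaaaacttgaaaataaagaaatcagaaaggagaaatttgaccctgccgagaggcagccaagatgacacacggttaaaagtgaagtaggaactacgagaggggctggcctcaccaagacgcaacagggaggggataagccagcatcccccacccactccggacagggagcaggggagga
Ednrb, chr14:103843652-103843951, minus strand: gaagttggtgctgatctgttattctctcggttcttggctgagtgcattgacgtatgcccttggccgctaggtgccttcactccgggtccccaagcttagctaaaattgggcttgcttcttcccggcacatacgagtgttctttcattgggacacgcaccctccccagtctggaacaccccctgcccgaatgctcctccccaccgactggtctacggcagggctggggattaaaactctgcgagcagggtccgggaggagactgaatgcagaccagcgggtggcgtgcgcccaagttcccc
Tie1, chr4:118489800-118490099, minus strand: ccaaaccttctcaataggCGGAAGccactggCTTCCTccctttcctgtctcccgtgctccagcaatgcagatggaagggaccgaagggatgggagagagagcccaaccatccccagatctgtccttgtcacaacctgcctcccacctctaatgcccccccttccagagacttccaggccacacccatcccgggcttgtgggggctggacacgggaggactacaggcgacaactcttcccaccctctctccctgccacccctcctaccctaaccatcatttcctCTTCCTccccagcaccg
Eng, chr2:32646345-32646644, plus strand: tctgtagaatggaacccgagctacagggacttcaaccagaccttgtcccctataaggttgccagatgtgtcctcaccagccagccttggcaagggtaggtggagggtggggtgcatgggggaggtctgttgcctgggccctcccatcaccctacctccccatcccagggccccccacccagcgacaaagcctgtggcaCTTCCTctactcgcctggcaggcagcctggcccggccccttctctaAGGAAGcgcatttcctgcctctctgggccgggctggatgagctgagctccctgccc

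In these windows Cd34 had 1 GATA word and 1 ETS word, Tie1 had 3 ETS words, Eng had 2, and Ednrb had neither kind. The promoter table matched 15 of the 35 members with 20 windows. A GATA word stood in 7 of the 20 windows (35%), against 29.8% of all 32851 windows, and an ETS word in 12 (60.0%), against 46.5%. A word of the kind bound by SOX factors (ACAATG or AACAAT, either strand) stood in 4 of the 20 (20%), against 18.7%. These matches describe letters in a window and show no binding, and a window without a match shows only that these letters are not in it.

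Among the junction and surface glycoproteins all 10 genes read lower, with a median of -0.49. Cd34, a sialomucin of capillary endothelium that blood progenitors also carry, had the smallest p of all members. The values were 11.16, 11.66 and 11.35 in WT 1 to WT 3 and 10.53, 10.64 and 10.50 in KO 1 to KO 3. The 3 arrays labelled KO lay close together and all below the lowest labelled WT. The difference was -0.83 (SE 0.14, limma adjusted p = 0.775, n = 3 each), or 1.78-fold lower on the scale of intensity + 16, and it ran from -0.94 to -0.70 with any 1 array left out.

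Ecscr, an endothelial surface regulator of cell migration, read 10.78, 10.79 and 10.40 in the arrays labelled WT and 9.56, 10.40 and 10.17 in those labelled KO. Its groups did not overlap, but KO 2 lay just below WT 3 and KO 1 lay far below the rest. Icam2, an adhesion molecule for white blood cells, had the same low array: it read 11.36, 11.43 and 10.93 against 10.36, 10.99 and 10.74, with KO 2 above WT 3. The differences were -0.62 (SE 0.24) and -0.54 (SE 0.21).

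The classical junction genes followed the other order, with WT 1 low and KO 1 high. Pecam1, a homophilic adhesion protein of endothelial cell borders, read 9.54, 10.72 and 10.62 in the arrays labelled WT and 10.07, 9.19 and 9.18 in those labelled KO. Cdh5, which encodes VE-cadherin, read 7.91, 9.44 and 8.79 against 8.69, 7.72 and 6.99. In both genes KO 1 exceeded WT 1. Pecam1 differed by -0.81 (SE 0.40), beside SDs of 0.66 in WT and 0.51 in KO. Cdh5 differed by -0.91 (SE 0.56), beside SDs of 0.77 in WT and 0.85 in KO. Esam, a tight junction adhesion protein, differed by -0.25 (SE 0.16).

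The sialomucin gene Emcn, a marker of capillary and venous endothelium, differed by -0.093 (SE 0.24), and without WT 3 it read higher in the arrays labelled KO. The C-type lectin gene Clec14a and its ligand Mmrn2, an extracellular matrix protein of vessels, differed by -0.13 (SE 0.10) and -0.16 (SE 0.24). Cyyr1, a small membrane protein, differed by -0.44 (SE 0.18). These 4 genes overlapped between the labels, and the lowest unadjusted p among them was that of Cyyr1, at 0.0497.

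**Figure D3:**
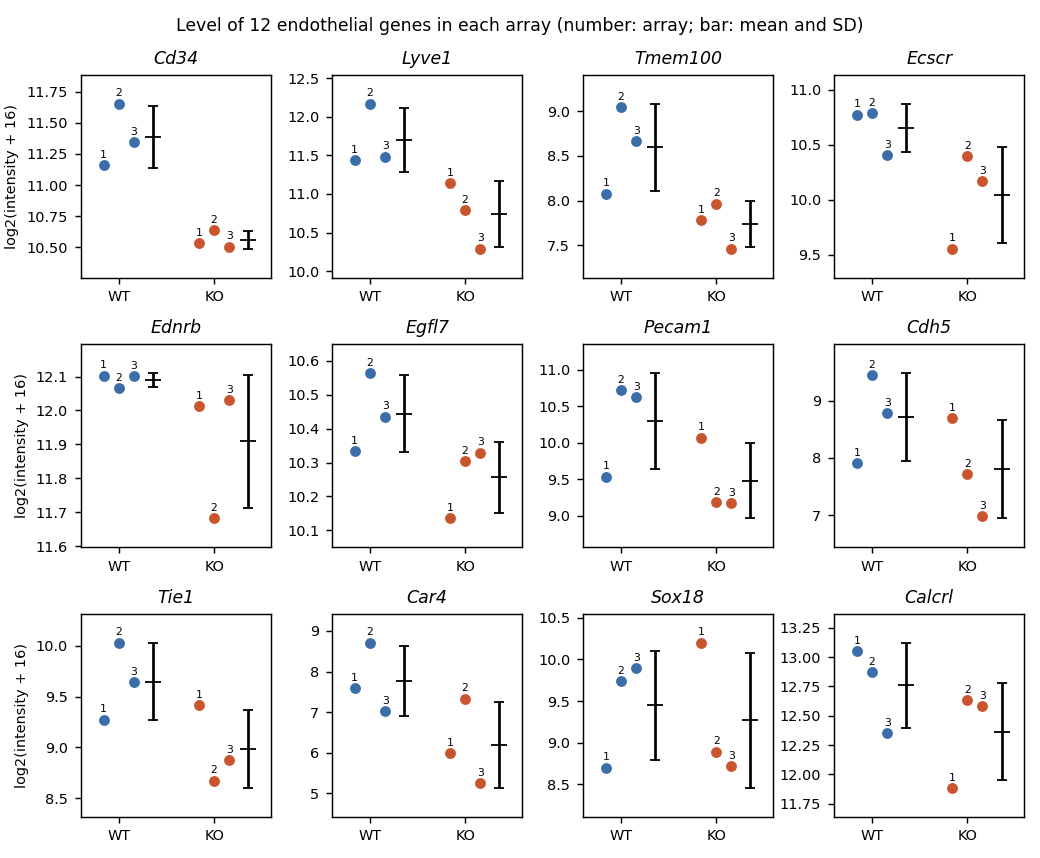
Level in each array, in log2(intensity + 16), of 12 endothelial genes: the 6 whose groups did not overlap (Cd34, Lyve1, Tmem100, Ecscr, Ednrb, Egfl7) and 6 further members. Points are arrays, numbered 1 to 3 as in the labels, with WT in blue and KO in orange, and bars give the mean and SD over 3 arrays; each panel has its own axis, and Ednrb spans under 0.5 log2.

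Genes of vessel growth and quiescence, 7 in all, read lower too, with a median of -0.37. Tmem100, a membrane protein that is induced through the ALK1 receptor, read 8.08, 9.05 and 8.67 in the arrays labelled WT and 7.78, 7.97 and 7.46 in those labelled KO. All arrays labelled KO lay below those labelled WT, with KO 2 next to WT 1, for a difference of -0.86 (SE 0.29, limma adjusted p = 0.964). Its second probe set, which is dimmer, differed by -0.42 (SE 0.17).

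The receptors that act above Tmem100 read lower by less or with more spread. Acvrl1, the gene of ALK1, differed by -0.37 (SE 0.21), with WT 2 at 9.85 and the other 5 arrays between 8.89 and 9.27. Without WT 2 its difference was -0.15. Eng, the coreceptor endoglin, read 8.29, 9.19 and 8.89 against 8.70, 7.97 and 7.67, so that KO 1 exceeded WT 1, and differed by -0.68 (SE 0.35).

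Tie1 and Tek, the receptor pair of the angiopoietins, differed by -0.66 (SE 0.27) and -0.37 (SE 0.25). Tie1 read 9.27, 10.03 and 9.64 in the arrays labelled WT and 9.41, 8.67 and 8.87 in those labelled KO, and WT 1 lay below KO 1. Robo4, a receptor that stabilises vessels, differed by -0.29 (SE 0.27), and by -0.078 without KO 2.

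Egfl7, a protein secreted by endothelium, read 10.33, 10.56 and 10.44 in the arrays labelled WT and 10.14, 10.30 and 10.33 in those labelled KO. The groups did not overlap, although KO 3 lay just under WT 1, and the difference was small, at -0.19 (SE 0.10). Its brightest probe set carries the x suffix of sequences shared with other transcripts; 3 of its 4 probe sets read lower and the dimmest read higher by 0.22 (SE 0.36).

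The 6 transcription factor genes read lower with a median of -0.27, and none had groups that did not overlap. Erg, the factor most restricted to endothelium among the ETS genes here, read 8.64, 9.60 and 9.58 in the arrays labelled WT and 8.94, 8.69 and 8.01 in those labelled KO. KO 1 and KO 2 both exceeded WT 1, and the difference was -0.72 (SE 0.36). Ets1 and Fli1, which white blood cells also express, differed by -0.32 (SE 0.14) and -0.23 (SE 0.26). The 4 probe sets of Ets1 differed by -0.32, -0.49, -0.69 and -0.32.

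The SOXF genes, which share a DNA-binding domain and partly stand in for each other, differed in how they varied. Sox7 read 7.27, 8.84 and 8.66 in the arrays labelled WT and 8.65, 6.32 and 7.11 in those labelled KO, for a difference of -0.90 (SE 0.71). KO 1 stood with WT 2 and WT 3, and without it the difference was -1.54. Sox18 read 8.70, 9.74 and 9.90 against 10.20, 8.89 and 8.72, so that KO 1 was the highest array of all, and it differed by -0.18 (SE 0.50). It turned to 0.20 (SE 0.19) with RNA composition as a covariate. The brightest probe set of Sox17, the member most tied to arteries, differed by -0.071 (SE 0.17), while its second, without the x suffix, differed by -0.42 (SE 0.18).

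The 5 genes of capillary specialisation and the blood interface had a median of -0.79, the lowest of the role groups. Car4, carbonic anhydrase at the capillary surface, had the largest difference of any member. The values were 7.59, 8.71 and 7.02 in WT 1 to WT 3 and 5.99, 7.34 and 5.26 in KO 1 to KO 3. KO 2 exceeded WT 3, and the spread within each group was about 1 log2 (SD 0.86 and 1.05). The difference was -1.58 (SE 0.67, limma adjusted p = 0.964), or 2.99-fold lower, and it ran from -2.15 without KO 2 to -1.11 without WT 2. Within fluidics station 2 Car4 differed by -0.83. Its second probe set differed by -1.61 (SE 0.63).

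Plvap, the diaphragm protein of endothelial pores, read 9.14, 10.32 and 10.41 against 9.91, 8.80 and 8.47, so that WT 1 lay below KO 1. It differed by -0.90 (SE 0.50). Gpihbp1, which carries lipoprotein lipase across capillaries, differed by -0.19 (SE 0.18). It was among the members whose sign turned with fluidics station as a block, at 0.14. Vwf, the clotting protein stored in endothelium, differed by -0.79 (SE 0.43), and by -1.22 without WT 1. Nos3, the endothelial nitric oxide synthase gene, differed by -0.49 (SE 0.31).

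Among the 5 peptide receptor and ligand genes the median was -0.40. Apln, the gene of apelin, read 7.66, 9.0 and 8.62 in the arrays labelled WT and 7.70, 7.68 and 6.88 in those labelled KO. WT 1 lay level with KO 1 and KO 2, and the difference was -1.01 (SE 0.41), or 2.01-fold lower. Its receptor gene Aplnr differed by -0.28 (SE 0.40), with 12.16 in KO 1 above WT 1 and WT 2, and by -0.00041 without WT 3. The second probe set of Aplnr, which is dimmer, differed by -0.59 (SE 0.34). The differences of Apln and Aplnr were not tested against each other.

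Ramp2, which turns the receptor CALCRL into a receptor for adrenomedullin, read 10.79, 11.54 and 11.12 against 10.80, 10.40 and 10.38. KO 1 lay just above WT 1, and the difference was -0.62 (SE 0.22). Calcrl read 13.05, 12.87 and 12.35 against 11.89, 12.63 and 12.58, and its lowest array was KO 1, as for Icam2 and Ecscr. It differed by -0.40 (SE 0.27), and was near 0, at 0.011, within fluidics station 2, where WT 3 is the only array of its label. Ednrb, an endothelin receptor gene, read 12.10, 12.07 and 12.10 against 12.01, 11.68 and 12.03. Its groups did not overlap, at a difference of -0.18 (SE 0.12) that rests on KO 2 and was -0.068 without it. Its 2 dimmer probe sets differed by -0.16 (SE 0.14) and -0.73 (SE 0.32), so the probe sets disagree in size, and their mean with the brightest differed by -0.36.

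Both lymphatic genes were measured, and 1 was bright. Lyve1, a hyaluronan receptor of lymphatic vessels that fetal macrophages and some blood vessels also carry, read 11.44, 12.17 and 11.48 in the arrays labelled WT and 11.14, 10.79 and 10.29 in those labelled KO. All arrays labelled KO lay below those labelled WT, for a difference of -0.96 (SE 0.29, limma adjusted p = 0.964), or 1.94-fold lower, and its second probe set differed by -0.88 (SE 0.29). It ran from -1.16 to -0.72 with any 1 array left out. Prox1, the factor that defines lymphatic identity, read between 4.64 and 4.98 in all 6 arrays, near the floor, as did its other 2 probe sets. The difference of 0.050 (SE 0.082) says nothing about lymphatic cells at that signal.

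**Figure D4:**
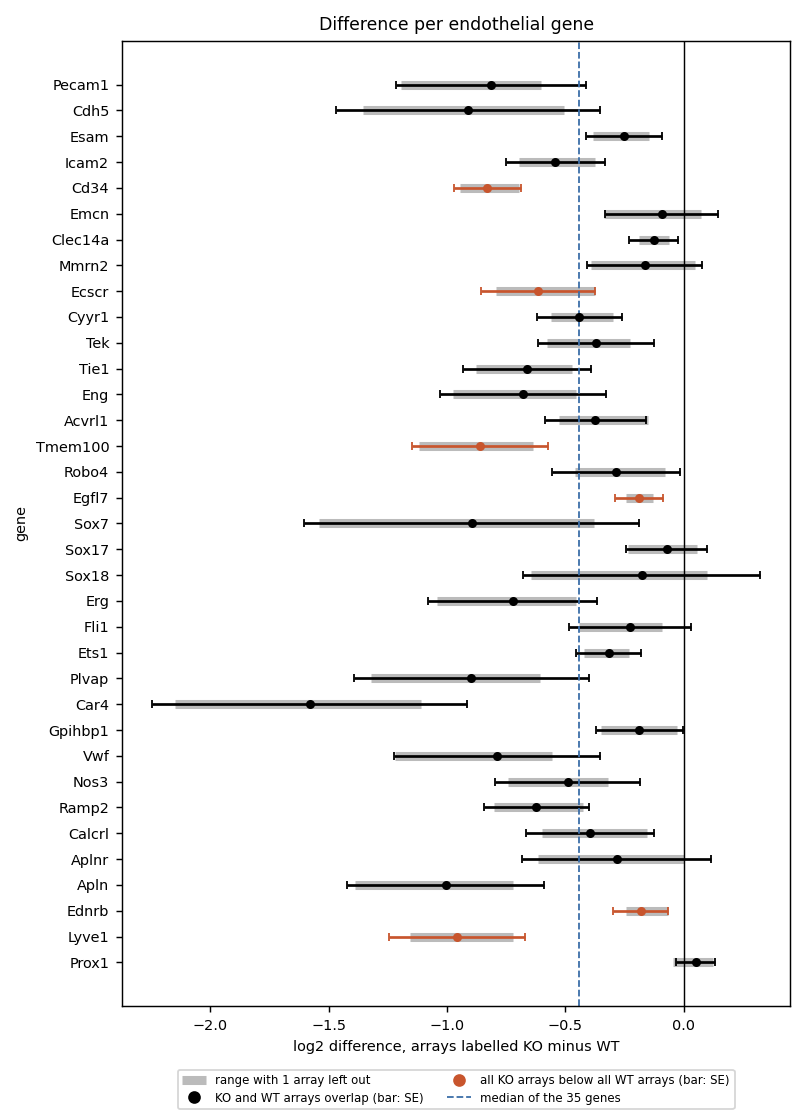
Log2 difference, arrays labelled KO minus WT, of the 35 endothelial genes (points), with the SE of the limma fit over 3 arrays each (thin bars), the range with 1 array left out (grey) and the median of the 35 at -0.44 (dashed line). Orange marks the 6 genes whose groups do not overlap; 34 of the 35 points lie below 0.

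Genes of the vessel wall that are not among the 35 were read from lists chosen by function. As for the 35, earlier results of these data were known, so these lists get no test of their own. Of 18 other endothelial genes 17 read lower, with a median of -0.46, and 7 had each array labelled KO under each labelled WT, against 3.81% of all genes and 6.27% of bright genes. The gene that did not read lower was Thbd, thrombomodulin, at 0.014 (SE 0.26). Cldn5, the tight junction claudin of endothelium, read 11.20, 11.44 and 11.23 against 10.46, 10.85 and 10.46 and differed by -0.70 (SE 0.14, limma adjusted p = 0.832). The VEGF receptor genes Kdr and Flt1 differed by -0.68 (SE 0.25) and -0.73 (SE 0.26). None of the 18 passed, and 6 reached an unadjusted p under 0.05, all lower, against 2.59% of all genes and 4.18% of bright genes. Summed on the linear scale, these genes ran from 16996 to 22077 in the arrays labelled WT and from 14423 to 14674 in those labelled KO.

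Of 10 genes of arterial and venous identity 9 read lower (median -0.33), among them the Notch ligand gene Dll4 (-0.90, SE 0.45) and the receptor genes Notch1 (-0.43, SE 0.27) and Notch4 (-0.66, SE 0.30). Of 6 further lymphatic genes 5 read lower (median -0.45): Flt4 differed by -0.82 (SE 0.33), Pdpn, which alveolar type I cells also make, by -1.40 (SE 0.73) and Reln by -0.48 (SE 0.38). Pdpn rests on KO 1: it read 8.49 there and 11.43 and 10.30 in KO 2 and KO 3, against 11.14 to 11.91 in the arrays labelled WT, and differed by -0.61 without KO 1. The 7 secreted factors listed beside these receptors read both ways, with 4 lower and a median of -0.033, which is the value of Angptl4. Angpt1 differed by 0.16 (SE 0.11), Angpt2 by 0.13 (SE 0.21) and Angptl4 by -0.033 (SE 0.19), while Vegfc, a ligand of lymphatic growth, differed by -0.64 (SE 0.14). None of these genes passed limma over all genes.

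The other genes of the BMP9-ALK1 branch, through which Acvrl1, Eng and Tmem100 act, did not read lower as a list: 6 of 11 were higher, with a median of 0.0021, which is the value of Bmp10, a gene at the floor. Of the 7 bright genes among them 5 read higher, with a median of 0.17. The receptor genes Bmpr2 and Acvr2b differed by -0.023 (SE 0.093) and -0.096 (SE 0.26), and the ligand gene Gdf2 by -0.038 (SE 0.057), near the floor. None of the 11 passed, and 1 reached an unadjusted p under 0.05 in limma, against 4.58% of all genes in either direction. A count of 1 in 11 is no result about the list. The gene was Id1, a target of BMP signals, at 0.70 (SE 0.25), opposite in sign to Tmem100. Its groups overlapped, with 11.58 in WT 3 above 11.55 in KO 3. The other endothelial list and these 11 genes were not tested against each other.

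**Figure D5:**
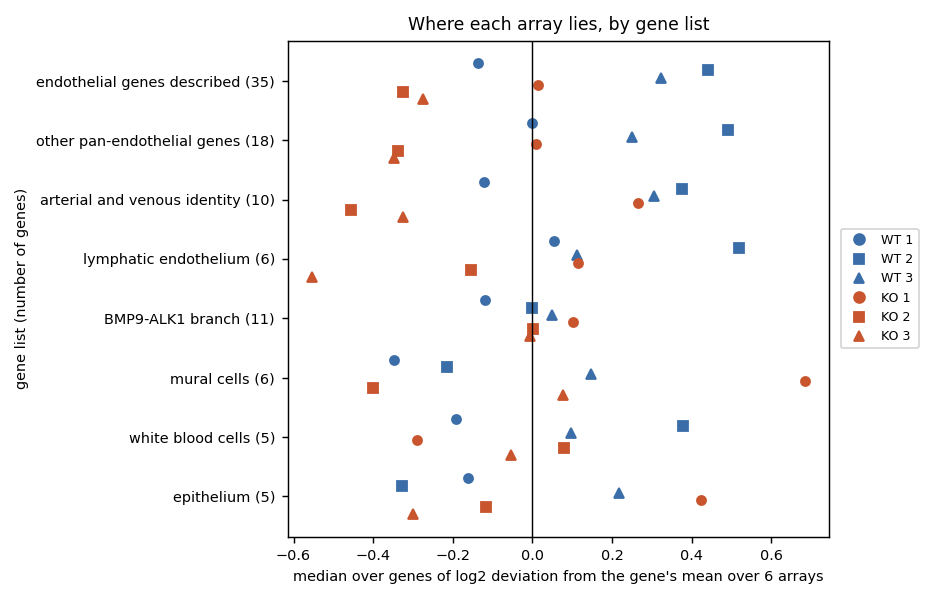
Median over the genes of a list of the log2 deviation of each array from the gene's mean over 6 arrays (x axis), for 8 gene lists (rows, with the number of genes); blue marks are arrays labelled WT, orange ones KO, and shapes give the array number. In the upper 3 lists WT 2 lies highest and KO 2 and KO 3 lowest, while in the mural cell list KO 1 lies highest, at 0.68.

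Markers of other cells were set beside these genes. White blood cells or their progenitors share Cd34, Pecam1, Icam2, Ets1 and Fli1 with endothelium. Their 5 markers all read lower (median -0.39; Ptprc -0.070, SE 0.27; Cd53 -0.10, SE 0.30; Laptm5 -0.39, SE 0.27), with sums of 1614 to 2389 in the arrays labelled WT and 1209 to 1878 in those labelled KO. Of the 5, 1 had each array labelled KO under each labelled WT, against 3.81% of all genes and 6.27% of bright genes. It was Coro1a (-0.69, SE 0.25). An unadjusted p under 0.05 in limma was reached by 2 of the 5, both lower, against 2.59% of all genes. They were Coro1a and the myeloid factor gene Spi1 (-0.43, SE 0.16), which was dim in all arrays. Mural cells, which wrap the vessels, read higher for 4 of 6 markers (median 0.24; Pdgfrb 0.073, SE 0.30; Cspg4 -0.13, SE 0.34; Rgs5 1.07, SE 0.55), with sums of 5183 to 7902 and 5416 to 11302. Of 5 epithelial markers 2 read higher (median -0.0042; Epcam 0.41, SE 0.40; Cdh1 -0.0042, SE 0.27; Nkx2-1 -0.36, SE 0.44), with sums of 16833 to 20185 and 17767 to 22240. Nkx2-1, the defining factor of lung epithelium, was dim through its 1 usable probe set, and the other 4 were bright. None of these markers passed limma, and their part in the endothelial differences was not tested.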

How the data were processed

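Intensities of 45101 probe sets on 6 Affymetrix Mouse430_2 arrays were used as deposited, on a linear scale. GCRMA and MAS5 appear, per the submitters' processing notes, without a stated role; which of them made the deposited intensities is not given in the sources used here. Fluidics stations were read from the deposited experiment files. Probe sets were named through the platform annotation and gene IDs of GRCm38.p6; 64 controls, 932 probe sets naming several genes and 9160 without a name here were left out, and 34945 remained. Each gene was read from its probe set with the highest mean, as log2(value + 16), without a filter. KO minus WT was fitted over all genes with limma 3.58.1 (R 4.3.3, eBayes with trend), two-sided, with Benjamini-Hochberg adjustment. Adjusted p-values and SEs are from this fit unless another fit is named. SEs of further probe sets of a gene come from the same model fitted over the 34945 probe sets. Depth has no meaning for arrays, and the number of arrays, 3 per group, limits the precision. The steps were tested on simulated data.

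The members, lists and rules for naming genes were chosen with earlier results of these data known. All 35 members are named; those with groups that do not overlap, and the largest differences of each role, are given in every array. Of other lists the first 3 measured genes are named; Thbd, Vegfc, Bmp10, Id1, Coro1a and Spi1 were added after their values were seen. The numbers 1 to 3 were not taken as pairs, since residuals of arrays with the same number correlated at -0.61, 0.097 and -0.31 across genes.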

Additional observations from a re-analysis of the deposited data

How the results depend on the processing

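No member passed an adjusted p of 0.05 under any of 18 alternatives in limma (lowest 0.173, with each array centred on its median), and the median over the members stayed below 0, from -0.59 within fluidics station 2 to -0.32 without KO 2. Members with an unadjusted p under 0.05, 8 as reported, numbered 1 with station as a block, 15 with median centring and 2 to 16 with 1 array left out. Over all genes, 1 passed as reported, 17 with median centring, 32 with station as a block, 10 within station 2, and 0 or 1 under the others. With the replicate block 0 members passed, as reported (lowest adjusted p 1.00), their median was -0.44, and 5 had an unadjusted p under 0.05. The 1 gene of all that passed as reported, no member, did not pass with the block. The shares of all genes with an unadjusted p under 0.05 are not given for these alternatives, so the member counts only show how the number moves. Of 629 member values, 12 turned in sign. The replicate block and eBayes without trend could not change a difference. Station as a block gave the same differences as the fit within station 2. Sox18 read 0.20 with RNA composition as a covariate, and Gpihbp1 and Calcrl read 0.14 and 0.011 with station as a block and within station 2. With 1 array left out, Emcn ran from -0.34 to 0.073, Mmrn2 from -0.39 to 0.049, Sox17 from -0.23 to 0.055, Sox18 from -0.64 to 0.099 and Prox1 from -0.043 to 0.12; 21 of the 35 members moved by over 1.5 times. The causes were not tested. Prox1 lies too near the floor for its differences to be read.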

Other observations

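Markers of cells inside and outside the vessels that the comparisons did not use varied between arrays of the same label. Of 4 measured red cell genes 3 read lower (median -0.14): Alas2, an enzyme of heme synthesis in red cell precursors, differed by -0.60 (SE 0.44), Slc4a1, the red cell anion exchanger, by -0.28 (SE 0.36), and Hba-a1, at the floor through its 1 usable probe set, by 0.0046 (SE 0.0058). Of 6 platelet genes 4 read higher (median 0.027), and Pf4, the platelet chemokine and the 1 bright gene among them, differed by 0.13 (SE 0.27), beside the difference of -0.79 (SE 0.43) of Vwf, which platelets also carry. Itga2b and Gp9, subunits of platelet receptors, were dim and differed by -0.12 (SE 0.089) and -0.063 (SE 0.054).

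Markers of the mesothelium, the covering layer of the lung, read lower for 3 of 3 genes (median -0.28), with differences of -0.28 (SE 0.35) for Wt1, -0.18 (SE 0.31) for Msln and -0.38 (SE 0.52) for Upk3b. Their summed intensity ran from 5457 to 9886 in the arrays labelled WT and from 3881 to 9711 in those labelled KO. None of these genes passed limma over all genes.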
